A study of Schizosaccharomyces pombe with 8 samples.

Results

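Fission yeast, Schizosaccharomyces pombe, grows as a haploid and enters meiosis only after mating, usually on nitrogen starvation. The RNA-binding protein Mei2 drives entry into meiosis and is held back in growing cells by the kinase Pat1, which Mei3 inhibits. Chromosomes are then pulled back and forth by their telomeres while Rec12 cuts DNA for recombination, the divisions follow with no S phase between them, and spores form inside new membranes. In growing cells many meiotic transcripts are kept low, and some are destroyed by the Mmi1 RNA elimination system.

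The genes described here carry the classical names of this programme (mei, meu, mde, rec, spo, mes, bqt, mcp, isp and mcs numbers, with dmc1, hop1, moa1, crs1, ssm4 and mfr1). They were chosen by their symbol alone, whole and ignoring case, after symbols had been updated to the current gene table. Of the 2896 S. pombe genes with a named probe set, 70 matched, with 1 probe set each. Another 10 matching genes had no named probe set and were not analysed here (mde1, meu3, meu11, meu16, meu19, meu20, meu43, sme2, spo2 and spo13). Another 3 genes matched only by an older symbol of the array annotation and were left out of the counts. Of these, num1 (older symbol mcp5), the dynein anchor of nuclear movement, was called 0.86 log2 higher at 43C after normalisation and not as deposited. The name does not fix the role: the mcs genes were named from mitosis, and isp4, isp6 and isp7 act in nutrient uptake or breakdown.

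The RNA came from the strains opi10- and opi10+, each grown to mid-log phase in Edinburgh Minimal Medium at 30C. Samples were taken before heat, at the end of a 43C step lasting 1 h, and 1 h and 3 h into recovery at 30C. Every combination of strain and condition had 1 array, giving 8 arrays. The opi10 product is the Hikeshi of fission yeast, and human Hikeshi imports HSP70 into the nucleus under heat stress. The labels say neither how opi10 was altered nor whether separate cultures were used. No strain and condition was repeated, so the error behind each p-value is how far the strains differed in their response. A strain difference confined to a single condition therefore raises that error. How much of the spread is technical cannot be told from these 8 hybridisations. For opi10 itself the annotation had no S. pombe probe set with which to check the strain labels.

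On the deposited scale the median S. pombe signal was 516.5 and 492.5 at 43C, in opi10- and opi10+, and between 922.4 and 1096 on the other 6 arrays. Values were therefore quantile normalised. The median change of all tested genes at 43C was -0.06 log2 after normalisation and -0.91 log2 on the deposited scale, so each call was also read on the deposited scale. Markers of growing cells (12 of the 15 listed were measured) had no value below 743.7 on any array, and their summed normalised signal ran from 55162 to 69006. Of 11 markers of mating or starved cells, 10 were measured and none was listed at 0. The summed signal of these 10 was 3311, 5596, 4988 and 7171 in opi10- before heat, during heat, and after 1 h and 3 h of recovery, against 3742, 7396, 6014 and 7484 in opi10+. The largest part of each sum was ste11, with 1956 before heat and 3634 at 43C in opi10-, and the list includes the member mei3. At 43C, 4 of the 10 were called higher and 3 lower, against 32.8% and 39.8% of all tested genes, with a median change of 0.01 log2. The counts were 5 and 1 at 1 h (25.5% and 27.2% of all genes), and 6 and 0 at 3 h (19.6% and 22.2%). As deposited, 3 were higher and 5 lower at 43C (11.2% and 73.7% of all genes), with a median change of -0.54 log2. On that scale the counts were 6 and 2 at 1 h (24.8% and 23.2%), and 8 and 0 at 3 h (26.8% and 11.4%). Any share of such cells in the changes below was not tested, and more cells of a type cannot be told apart from more RNA per cell.

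Background was set on each array at the 95th percentile of probe sets for S. cerevisiae genes. Against it, 58 lay above on all 8 arrays and 10 on some of them. moa1, which orients sister centromeres in meiosis I, and rec7, needed for recombination, lay above it on none, and these did not pass the filter, so that 68 genes were tested. The median member had a normalised signal of 87.5, 164.0, 124.2 and 92.3 in opi10- (before heat, 43C, 1 h and 3 h of recovery), against 89.4, 177.9, 171.1 and 112.2 in opi10+. As deposited it was 73.4, 73.7, 145.3 and 125.8 in opi10-, and 85.7, 70.7, 194.8 and 167.7 in opi10+. The peak of this median thus lay at 43C after normalisation and at 1 h as deposited. The median of all S. pombe probe sets was fixed by the normalisation at 885.6.

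At 43C the programme did not move as a unit. Of the 68 genes, 27 were called higher than before heat and 27 lower (limma, adjusted p at or under 0.05), while over all 2892 tested genes 32.8% were called higher and 39.8% lower. The members' shares, 39.7% in each direction, thus lay near those of all genes, and their median change was 0.18 log2, against -0.06 log2 for all genes. Changes of 2-fold or more were called for 17 members upward and 9 downward, against 11.9% and 11.3% of all genes. On the deposited scale, 14 members were called higher and 40 lower, against 11.2% and 73.7% of all genes. The same 14 genes were higher on both scales, namely crs1, dmc1, hop1, isp3, mde7, mei3, meu1, meu7, meu13, meu15, meu22, rec24, spo4 and spo6. All 27 genes called lower after normalisation were also lower on the deposited scale, whereas isp4, rec11 and spo9 changed direction, called higher after normalisation and lower as deposited.

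**Figure D1:**
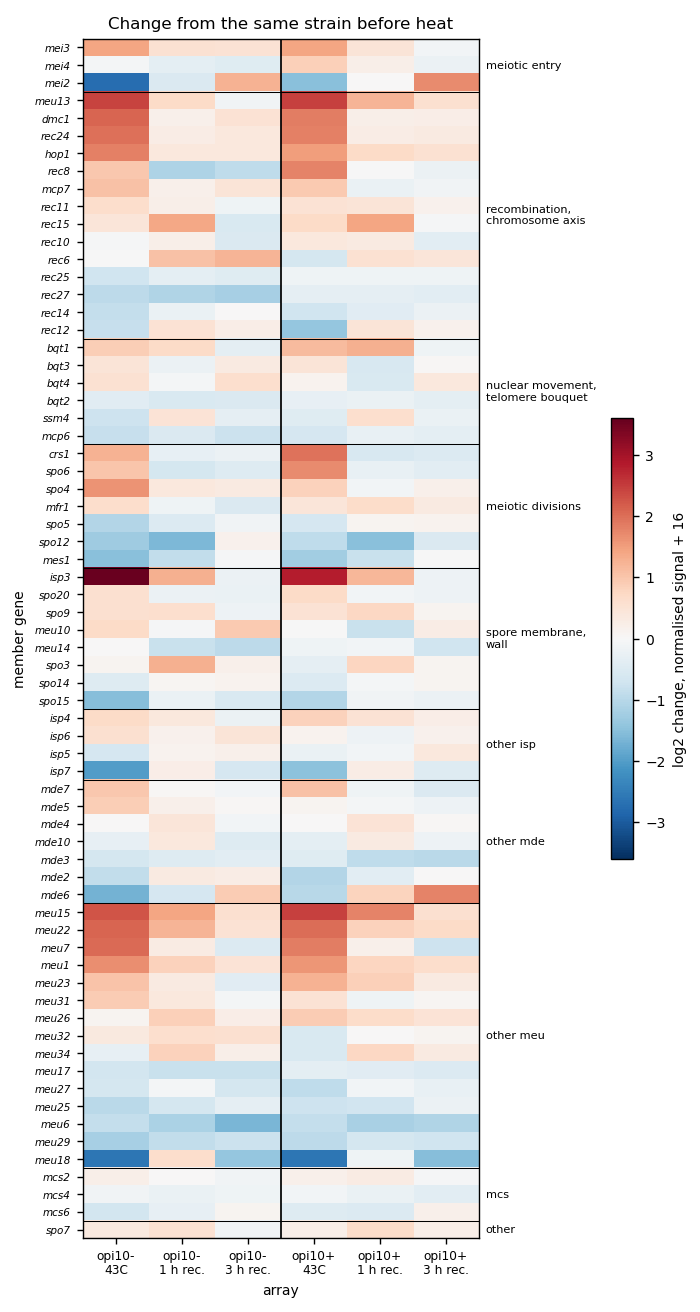
Log2 change of normalised signal + 16 for the 68 tested genes, each array against the same strain before heat, with opi10- in the left 3 columns and opi10+ in the right 3, grouped by role. At 43C isp3 shows the strongest rise and meu18 and mei2 the deepest falls, and genes of nearly every role lie on both sides of 0.

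**Figure D2:**
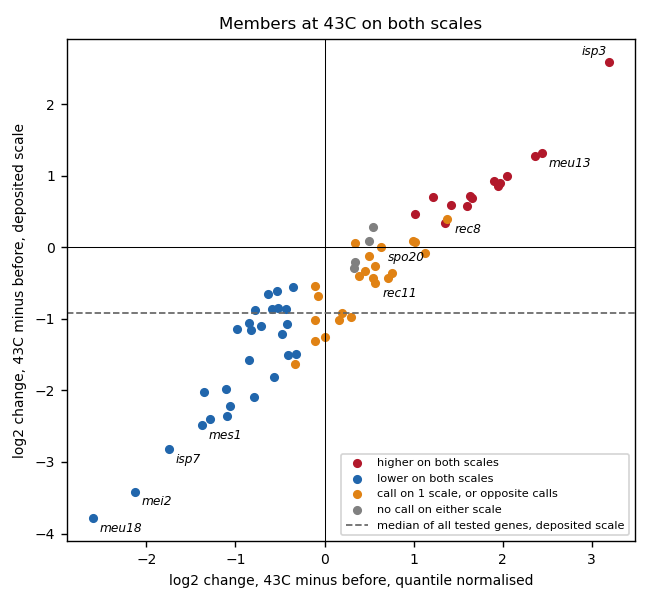
Mean log2 change at 43C of each of the 68 genes after quantile normalisation (horizontal) and on the deposited scale (vertical), coloured by whether the calls on both scales match. The dashed line is the median of all tested genes on the deposited scale, -0.91 log2, and the 14 genes in the upper right and 27 in the lower left have the same call on both scales.

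The genes of meiotic entry went in different directions at 43C. Signals and sizes of change below are after normalisation unless said to be as deposited, and signals are given in the order before heat, 43C, 1 h and 3 h of recovery. mei2, whose product drives entry into meiosis, had 1434, 201.1, 993.7 and 3435 in opi10-, and 1001, 340.4, 1012 and 3305 in opi10+. Both strains were lowest at 43C, back near the starting range at 1 h, and highest at 3 h, and the arrays at 43C and at 3 h overlapped those of no other condition. The mean change was -2.13 ± 0.26 log2 at 43C (SE, 2 arrays per condition, 1 per strain, adjusted p = 4e-04). At 3 h it was 1.48 ± 0.26 log2 (adjusted p = 0.0069), a 2.79-fold rise over the level before heat. Both calls also stood on the deposited scale.

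mei3, the inhibitor of Pat1, had 17.0, 72.1, 32.4 and 31.5 in opi10-, and 32.0, 111.8, 49.6 and 28.7 in opi10+. After normalisation it was highest at 43C in both strains and called 1.42 ± 0.16 log2 above the level before heat (adjusted p = 3.3e-04), and still called higher at 1 h (0.50 log2, adjusted p = 0.04). As deposited the change at 43C was 0.60 log2, and opi10+ was highest at 1 h (58.8, against 47.2 at 43C). The opi10- array before heat lay under background, so that the sizes of these changes are uncertain. mei4, the forkhead transcription factor of the middle meiotic genes, had 89.5, 84.4, 66.6 and 61.3 in opi10-, and 65.1, 129.7, 78.3 and 54.1 in opi10+. Its arrays at 43C overlapped those before heat, and mei4 was not called in any comparison on the normalised scale. As deposited it was called lower at 43C (-0.40 log2, adjusted p = 0.0148).

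Among 14 tested genes of recombination and the chromosome axis, 8 were called higher and 4 lower at 43C, against 32.8% and 39.8% of all genes. As deposited, 4 were called higher and 7 lower, against 11.2% and 73.7% of all genes. On both scales 4 rises and 4 falls held. The 4 that rose on both were meu13, dmc1, rec24 and hop1. meu13 encodes the fission yeast Hop2, which helps homologues pair, and had 42.1, 296.3, 77.1 and 37.3 in opi10-, and 39.1, 286.5, 111.8 and 66.6 in opi10+. After normalisation its 2 arrays at 43C lay above all 6 others, with a change of 2.44 ± 0.19 log2 (5.43-fold on the log2(value + 16) scale, adjusted p = 7.2e-05). As deposited the change was 1.31 log2, and the opi10+ array at 1 h (130.9) lay above both at 43C (128.9 in opi10- and 109.3 in opi10+). dmc1, the meiotic strand exchange protein, had 58.8, 302.2, 69.6 and 91.5 in opi10-, and 88.5, 361.8, 103.9 and 107.5 in opi10+. After normalisation the 43C arrays stood clear, 1.97 ± 0.10 log2 above before heat (adjusted p = 2.1e-05), and dmc1 then fell by 1.77 ± 0.10 log2 within 1 h of recovery (adjusted p = 6.7e-05). As deposited the rises at 43C (0.90 log2) and at 3 h (0.94 log2) were of like size, and the fall to 1 h was 0.39 log2.

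rec24, a partner of Rec7 in the complex that makes meiotic DNA breaks, had 31.5, 172.1, 41.7 and 46.3 in opi10-, and 32.7, 154.8, 42.8 and 44.5 in opi10+. The strains differed little at each step, and the rise at 43C was 1.90 ± 0.08 log2 (adjusted p = 1.5e-05), or 0.92 log2 as deposited. hop1, a protein of the meiotic chromosome axis, rose by 1.66 ± 0.15 log2 (adjusted p = 1.2e-04), to 167.9 in opi10- and 126.6 in opi10+, against 36.3 in opi10- and 34.5 in opi10+ before heat. As deposited the rise of hop1 was 0.69 log2. Both genes were called higher at 3 h too, rec24 by 0.35 log2 (adjusted p = 0.017; 0.76 log2 as deposited) and hop1 by 0.46 log2 (adjusted p = 0.046; 0.86 log2 as deposited).

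The meiotic cohesin gene rec8 had 82.6, 175.7, 29.2 and 36.7 in opi10-, and 37.3, 169.1, 36.3 and 29.7 in opi10+. It was called 1.38 ± 0.24 log2 higher at 43C after normalisation (adjusted p = 0.0021), but on the deposited scale the change was 0.39 log2 and not called (adjusted p = 0.093). Its fall between 43C and 1 h of recovery, by 1.95 ± 0.24 log2 (adjusted p = 6.4e-04), was called on both scales. mcp7, the Mnd1 partner of Meu13, was likewise called higher at 43C after normalisation (1.00 ± 0.15 log2) and not as deposited. rec12, the nuclease that makes the breaks, went the other way: it had 203.8, 107.5, 296.9 and 244.9 in opi10-, and 216.0, 72.8, 301.1 and 240.3 in opi10+. The 43C arrays were the lowest of each strain, with a change of -1.11 ± 0.14 log2, and rec12 then rose by 1.59 ± 0.14 log2 to 1 h of recovery. Both changes were called on both scales (-1.98 and 2.60 log2 as deposited). rec14, another gene needed for the breaks, fell by 0.79 ± 0.11 log2 at 43C.

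rec15 and rec6, also needed for break formation, peaked later. rec15 had 50.7, 74.0, 159.3 and 29.7 in opi10-, and 66.6, 118.0, 202.9 and 63.8 in opi10+. Both arrays at 1 h of recovery lay above the other 6, 1.40 ± 0.14 log2 above before heat (adjusted p = 7.2e-04), and at 3 h the difference was -0.30 log2 and not called. rec6 had 282.4, 277.6, 600.9 and 686.4 in opi10-, and 423.7, 267.8, 631.5 and 576.4 in opi10+. Its recovery arrays lay above both earlier conditions, with changes of 0.80 log2 at 1 h (adjusted p = 0.011) and 0.83 ± 0.18 log2 at 3 h (adjusted p = 0.014), the second of which was lost when the opi10- array at 3 h was left out (0.62 log2, adjusted p = 0.0891).

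Among the 6 tested genes of telomere bouquet and nuclear movement, 2 were called higher and 3 lower at 43C (32.8% and 39.8% of all genes). As deposited 0 were higher and 3 lower (11.2% and 73.7% of all genes), so that none of the rises held. bqt1, whose product links telomeres to the spindle pole body in meiosis, had 79.2, 160.1, 137.6 and 58.1 in opi10-, and 65.8, 165.8, 183.1 and 56.9 in opi10+. After normalisation its arrays at 43C and at 1 h lay above those before heat and at 3 h, and the call at 1 h (0.99 ± 0.14 log2, adjusted p = 0.0021) stood on both scales, while the change at 43C was 1.02 ± 0.14 log2 after normalisation and 0.07 log2, not called, as deposited. ssm4, a dynactin subunit of nuclear movement, had 41.7, 18.4, 65.8 and 30.5 in opi10-, and 54.1, 35.6, 91.5 and 43.8 in opi10+. It was lowest at 43C (-0.59 ± 0.10 log2, with opi10- under background) and highest at 1 h (0.56 log2, adjusted p = 0.0041) in opi10+ and in opi10-. mcp6, a spindle pole body protein of the same movement, fell by 0.72 ± 0.11 log2 at 43C. bqt4, which anchors telomeres at the nuclear envelope also in growing cells, was called higher at 3 h alone among the comparisons with the level before heat (0.49 log2, adjusted p = 0.024).

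The genes of the meiotic divisions split evenly at 43C, with 3 of 7 tested higher and 3 lower, all 6 on both scales. Of all genes, 32.8% were higher and 39.8% lower, or 11.2% and 73.7% as deposited. crs1, a meiotic cyclin, had 57.8, 158.4, 44.5 and 47.6 in opi10-, and 58.8, 272.5, 33.8 and 36.7 in opi10+. It rose by 1.59 ± 0.24 log2 at 43C (adjusted p = 0.0011) and fell by 2.03 ± 0.24 log2 from there to 1 h of recovery (adjusted p = 5.7e-04), after normalisation to values below all others of its strain. As deposited these changes were 0.57 and -0.73 log2. spo6 and spo4 encode the regulatory and kinase parts of one enzyme needed for meiosis II. spo6 had 64.3, 144.5, 35.6 and 41.7 in opi10-, and 46.3, 186.8, 35.4 and 31.5 in opi10+, a change of 1.35 ± 0.17 log2 at 43C (adjusted p = 4.8e-04) followed by a fall of more than that size. As deposited spo6 changed by 0.34 log2 at 43C and by -0.57 log2 from there to 1 h. spo4 was below background before heat on both arrays and above it at 43C on both, at 25.3 in opi10- and 20.0 in opi10+ as deposited, so that it was at least 1.40-fold higher at 43C as deposited and at least 2.17-fold after normalisation.

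mes1, whose product keeps cells from leaving meiosis after its first division, had 396.7, 129.4, 205.4 and 387.6 in opi10-, and 346.6, 136.1, 190.1 and 343.0 in opi10+. The strains ran in parallel: lowest at 43C (-1.38 ± 0.09 log2, adjusted p = 4.4e-05), still low at 1 h (-0.86 ± 0.09 log2, adjusted p = 9.2e-04), and at 3 h 0.02 log2 below before heat, a difference that was not called. spo12, a homologue of a budding yeast regulator of mitotic exit, had 724.9, 289.7, 227.3 and 815.1 in opi10-, and 792.7, 416.1, 270.2 and 552.1 in opi10+. The change from before heat was -1.09 ± 0.23 log2 at 43C and -1.55 ± 0.23 log2 at 1 h (adjusted p = 0.0024), both lower on both scales. Which of these conditions was lowest depended on the scaling: after normalisation it was 1 h, with the step from 43C not called (adjusted p = 0.12), and as deposited it was 43C, with that step called higher (0.87 log2, adjusted p = 0.0029). spo5, an RNA-binding protein of meiosis II, fell by 0.83 log2 at 43C.

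**Figure D3:**
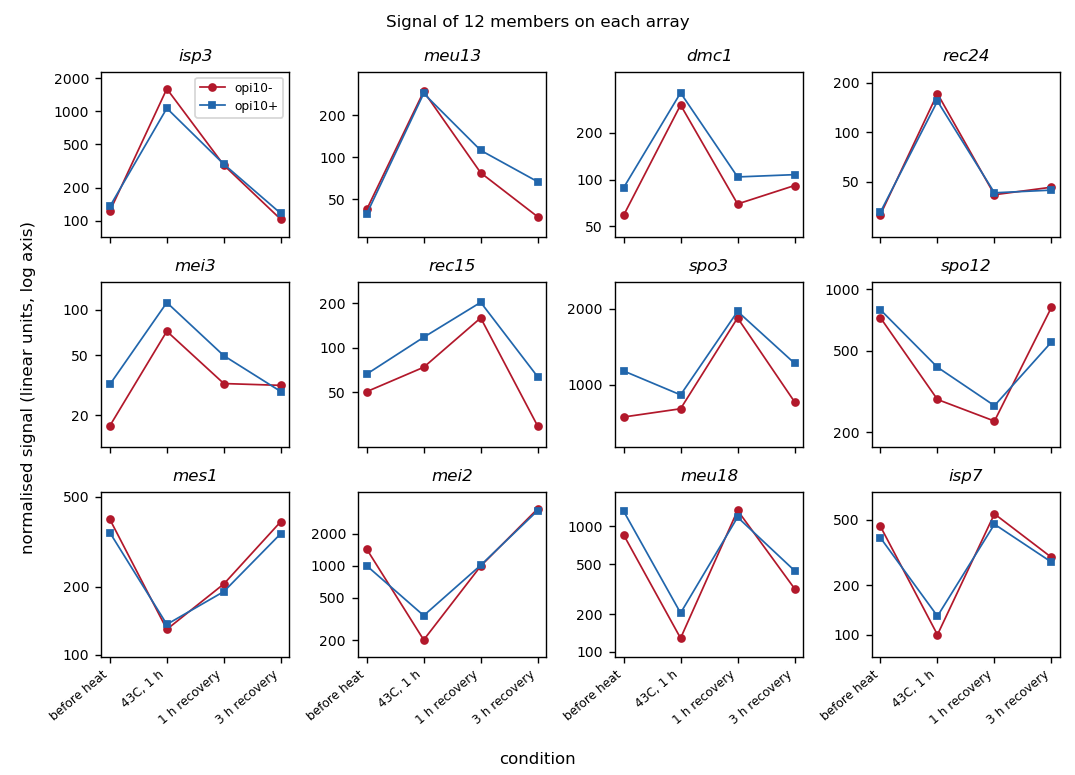
Normalised signal (log axis, linear units) of 12 of the genes on each of the 8 arrays, opi10- as red circles and opi10+ as blue squares, in the order of sampling. On this scale isp3, meu13, dmc1, rec24 and mei3 peak at 43C and spo12 is lowest at 1 h, but as deposited only isp3 of those 5 keeps its peak at 43C in both strains and spo12 is lowest at 43C. On both scales rec15 and spo3 peak at 1 h and mei2, meu18, isp7 and mes1 are lowest at 43C.

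Of 8 genes of the spore membrane and wall, 3 were called higher and 2 lower at 43C (32.8% and 39.8% of all genes). As deposited 1 was higher and 5 were lower (11.2% and 73.7% of all genes). isp3, which encodes a protein of the spore surface, changed most of all members: it had 122.6, 1607, 322.8 and 103.2 in opi10-, and 135.4, 1068, 329.4 and 116.8 in opi10+. The 43C arrays were the highest in both strains, the 1 h arrays intermediate, and the 3 h arrays closest to the level before heat. The rise at 43C was 3.19 ± 0.18 log2 (9.16-fold, adjusted p = 2.9e-05), or 2.59 log2 as deposited, and isp3 was still 1.24 ± 0.18 log2 above at 1 h (adjusted p = 0.0024) and not called at 3 h (-0.20 log2, adjusted p = 0.41). spo15, a spindle pole body protein needed to start the spore membrane, had 1617, 548.5, 1369 and 1096 in opi10-, and 1396, 666.9, 1280 and 1198 in opi10+. Only its 43C arrays stood apart, at -1.29 ± 0.13 log2 (adjusted p = 1.8e-04).

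spo3, a protein of the spore membrane, had 743.3, 801.7, 1843 and 854.0 in opi10-, and 1134, 910.5, 1956 and 1216 in opi10+. It stood out at 1 h of recovery, 1.03 ± 0.14 log2 above before heat (adjusted p = 0.0018), and its change at 43C was not called after normalisation (-0.10 log2, adjusted p = 0.53) but was called lower as deposited (-1.02 log2). spo9, a prenyl diphosphate synthase, was called 0.54 log2 higher at 43C after normalisation and lower as deposited. At 1 h spo9 was called higher on both scales, by 0.67 log2 after normalisation and 0.73 log2 as deposited. spo20, a Sec14-like lipid transfer protein that growing cells also need, was called 0.63 log2 higher at 43C after normalisation only. spo14, a protein of transport from the endoplasmic reticulum, fell by 0.48 log2.

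Of 15 other meu genes, a name given to transcripts raised in meiosis, 6 were called higher and 7 lower at 43C (32.8% and 39.8% of all genes). As deposited 4 were higher and 8 lower (11.2% and 73.7% of all genes), and 4 rises and 7 falls held on both scales. meu15 had 40.8, 257.5, 136.5 and 68.1 in opi10-, and 47.6, 331.0, 202.1 and 79.2 in opi10+. Each later condition was above the level before heat in both strains, by 2.36 ± 0.11 log2 at 43C (adjusted p = 1.6e-05), 1.60 ± 0.11 log2 at 1 h (adjusted p = 5e-04) and 0.57 ± 0.11 log2 at 3 h (adjusted p = 0.0087). Leaving out the opi10- 3 h array ended that last call (adjusted p = 0.0765). meu22 had 59.7, 305.2, 162.2 and 93.0 in opi10-, and 90.2, 411.1, 172.1 and 153.9 in opi10+. Its changes were 2.05 ± 0.14, 1.03 ± 0.14 and 0.60 ± 0.14 log2, the last with an adjusted p of 0.015. The order of these sizes depended on the scaling: as deposited meu22 changed by 1.00, 1.32 and 1.17 log2 and meu15 by 1.27, 1.88 and 1.04 log2, each largest at 1 h. That call was lost without the first opi10- array (before heat, adjusted p = 0.0874), and likewise without the opi10+ 3 h array (adjusted p = 0.0861). meu7 had 74.0, 354.7, 93.6 and 48.2 in opi10-, and 81.6, 336.8, 95.6 and 42.1 in opi10+, a rise of 1.95 ± 0.09 log2 at 43C (adjusted p = 1.6e-05) that was not called at 1 h after normalisation (0.24 log2, adjusted p = 0.066) but was as deposited (0.54 log2, adjusted p = 0.0106). At 3 h it was called lower after normalisation (-0.62 ± 0.09 log2, adjusted p = 0.0046) and not as deposited.

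meu18 showed the deepest fall of the 68 genes at 43C. It had 855.9, 128.4, 1337 and 318.6 in opi10-, and 1321, 203.8, 1181 and 443.1 in opi10+. The signal was low at 43C and again at 3 h, and at 1 h it lay close to the range seen before heat. The changes from before heat were -2.60 ± 0.20 log2 at 43C (6.06-fold lower, adjusted p = 6.8e-05), 0.24 log2 at 1 h (adjusted p = 0.35) and -1.46 ± 0.20 log2 at 3 h (adjusted p = 0.0039), and the step up from 43C to 1 h was 2.84 ± 0.20 log2 (adjusted p = 1e-04).

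Of the meu genes that fell at 43C, meu6, meu17 and meu29 were also called lower at 1 h and 3 h on both scales. meu29 had 1128, 484.8, 606.8 and 649.2 in opi10-, and 1061, 549.7, 683.5 and 635.6 in opi10+. All 6 later arrays lay below both arrays before heat on both scales. After normalisation the changes were -1.06 log2 at 43C, -0.75 log2 at 1 h (adjusted p = 0.0016) and -0.75 log2 at 3 h (adjusted p = 0.0039). As deposited they were -2.22, -0.65 and -0.55 log2. meu6 was dim at 51.9 in opi10- and 53.7 in opi10+ before heat and lay at 5.76 in opi10- and 17.0 in opi10+ at 3 h (-1.36 ± 0.16 log2, adjusted p = 0.0029), where the opi10- array was under background, so that the size of this change is uncertain. meu27 had 35.4, 17.0, 33.2 and 17.0 in opi10-, and 44.5, 16.2, 40.8 and 34.5 in opi10+. It was under background on both 43C arrays, at least 2.15-fold lower there than before heat after normalisation (at least 2.75-fold as deposited), and was called neither at 1 h nor at 3 h.

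Among 7 other mde genes, 2 were called higher and 4 lower at 43C (32.8% and 39.8% of all genes). As deposited 1 was higher and 5 were lower (11.2% and 73.7% of all genes). mde6 had 163.8, 39.8, 101.9 and 324.7 in opi10-, and 168.3, 75.6, 304.5 and 616.4 in opi10+. It was lowest at 43C and highest at 3 h in both strains, with changes of -1.35 ± 0.29 log2 (adjusted p = 0.0055) and 1.35 ± 0.29 log2 (adjusted p = 0.013), while the strains parted at 1 h. The call at 3 h was lost without the opi10- array at 3 h (adjusted p = 0.0586) or without the opi10+ one (adjusted p = 0.068). mde2, needed for meiotic DNA breaks, was under background on both 43C arrays. After normalisation it was there at least 2.61-fold lower than before heat, and at 1 h of recovery at least 2.53-fold higher than at 43C, while the bounds as deposited were 3.53-fold and 4.37-fold. mde7 was called higher at 43C on both scales, by 1.01 ± 0.13 log2 after normalisation, with the opi10- array before heat under background.

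Of the 4 other isp genes, isp7, an oxygenase of amino acid uptake control, had 455.5, 100.3, 542.9 and 295.8 in opi10-, and 388.7, 130.0, 470.0 and 276.8 in opi10+. The 43C arrays were lowest by far, with a change of -1.75 ± 0.14 log2 from before heat (adjusted p = 9.2e-05), and isp7 rose by 2.00 ± 0.14 log2 from there to 1 h (adjusted p = 1.2e-04). The amino acid permease gene isp5 was called lower at 43C on both scales (-0.43 log2 after normalisation, -1.075 log2 as deposited). The rises of the oligopeptide transporter gene isp4 (0.75 log2) and of the vacuolar protease gene isp6 (0.34 log2) were called after normalisation only. As deposited isp4 was called lower. Of the 3 mcs genes, mcs6, the kinase that activates Cdc2, fell by 0.57 log2 at 43C, and mcs2 and mcs4 were not called after normalisation. Leaving out mcs and isp genes, 24 of 60 were called higher at 43C and 24 lower (40% each), against 32.8% and 39.8% of all genes.

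At 1 h of recovery, 22 members were called higher than before heat and 12 lower, against 25.5% and 27.2% of all genes. Changes of 2-fold or more were called for 5 members upward and 2 downward, against 3.35% and 3.25% of all genes. All 22 rises and 7 of the 12 falls were called on the deposited scale too, where 27 members were higher and 8 lower (24.8% and 23.2% of all genes). The members' share of rises was 32.4% and of falls 17.6%, and their median change was 0.08 log2, against -0.00 log2 for all genes. These counts rest on single arrays: 13 were called higher without the opi10- array at 1 h and 13 without the opi10+ one, and 7 and 8 were called lower. The rises were spread over 6 of 14 recombination genes, 6 of 15 meu genes and 3 of 8 spore genes, and the division genes had none, with mes1 and spo12 lower. meu34 (0.79 log2), spo7 (0.59 log2), mde4, a kinetochore protein (0.46 log2), and mde10, a metalloprotease of the spore envelope (0.35 log2), were called higher here although none of them had risen at 43C. meu34 had 824.4, 673.3, 1486 and 952.5 in opi10-, and 866.4, 591.9, 1455 and 1093 in opi10+, so that its 1 h arrays lay above the other 6.

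A pair of dim genes were called lower at 1 h and 3 h after normalisation, of which only mde3 at 1 h was called as deposited. Each lay above background on 1 array alone, before heat. rec27, a protein of the chromosome axis, had 35.6, 10.8, 8.62 and 6.38 in opi10-, and 13.1, 7.12, 7.12 and 6.38 in opi10+. mde3 had 11.3, 1.37, 5.49 and 8.70 in opi10-, and 16.9, 6.41, 2.13 and 2.67 in opi10+, here on the deposited scale. With most arrays under background, no size of change is given for these genes.

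By 3 h most members had no call against the level before heat: 11 were higher and 12 lower, against 19.6% and 22.2% of all genes. Changes of 2-fold or more were called for 2 members upward (mei2 and mde6) and 2 downward (meu18 and meu6), against 2.87% and 1.28% of all genes. As deposited, 19 were higher and 4 lower, against 26.8% and 11.4% of all genes. The 11 rises, all called on both scales, were bqt4, dmc1, hop1, mde6, mei2, meu1, meu10, meu15, meu22, rec24 and rec6. Only 3 genes were called higher without the opi10- array at 3 h, 5 without the opi10- array before heat and 6 without the opi10+ array at 3 h, and 7 were called lower without the opi10- array before heat. Of the 12 falls, meu6, meu17, meu18 and meu29 held on the deposited scale. meu10, a spore wall protein, was called higher at 3 h (0.60 ± 0.19 log2, adjusted p = 0.042), with 65.8 at 3 h against 26.9 before heat in opi10-, and 54.6 against 42.8 in opi10+. That call was lost in all but 1 of the fits that left out an array. meu14, a protein at the leading edge of the growing spore membrane, had 81.6, 83.2, 39.8 and 34.5 in opi10-, and 78.3, 68.1, 72.1 and 41.7 in opi10+. At 3 h it was called lower after normalisation (-0.83 ± 0.20 log2, adjusted p = 0.019) and not as deposited (adjusted p = 0.16), nor without the opi10- array before heat or either array at 3 h.

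Between 43C and 1 h of recovery 22 members rose and 23 fell, against 35% and 30.4% of all genes, and 22 and 10 of these calls held on the deposited scale, where 43 were called higher and 10 lower (78.6% and 7.3% of all genes). After normalisation, 10 rises and 13 falls were of 2-fold or more, against 7.75% and 8.44% of all genes. The 10 falls on both scales were crs1, dmc1, isp3, mde7, meu7, rec8, rec24, spo4, spo6 and spo20, of which 8 had risen at 43C on both. meu1, meu15, meu23 and meu31 were called lower after normalisation and higher as deposited. Named by the size of the rise after normalisation, meu18, isp7, mei2, rec12, mde6 and meu34 (1.20 log2) led the other direction, each called on both scales.

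Dim genes make up more of the members than of the genome. With a mean deposited signal under 100, 15 of 33 members (45.5%) were called higher and 12 (36.4%) lower at 43C, against 40.9% and 29.9% of the 137 such genes tested. Among the 35 brighter members, 12 (34.3%) were higher and 15 (42.9%) lower, against 32.5% and 40.3% of the 2755 brighter genes tested. Counted at any size, the share called higher among dim members thus lay near that of dim genes as a whole. Changes of 2-fold or more were called for 13 of the 33 dim members upward and 0 downward. Among the 137 dim genes, these members included, such calls numbered 34 upward and 14 downward.

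Those genes of the set best known as Mmi1 targets, whose transcripts it helps remove from growing cells, did not move together at 43C. rec8 and crs1 were called higher (rec8 not as deposited), ssm4 and spo5 were called lower, and mei4 was not called (but lower as deposited). The grouping was made after the values were known and was given no test.

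Genes of the same pathways outside the naming rule were read from lists of textbook members, to be set against the 32.8% of all tested genes called higher and 39.8% called lower at 43C (11.2% and 73.7% as deposited). Of 10 genes of the meiotic switch, 5 were called higher and 4 lower at 43C (5 and 5 as deposited), led by cgs1 (2.55 log2) and pka1 (1.69 log2), the regulatory and catalytic subunits of protein kinase A, and by zfs1 (1.27 log2), a zinc finger protein. Of 5 measured genes of meiotic mRNA elimination, none was higher and 2 were lower (5 as deposited), pab2, the nuclear poly(A)-binding protein, by 0.51 log2 and pla1, the poly(A) polymerase, by 0.48 log2, while mmi1 itself differed by 0.24 log2 and was not called after normalisation but was lower as deposited (adjusted p = 0.00165). Of 10 other meiotic transcription and kinase genes, 8 were higher and none lower (4 and 3 as deposited). In front were atf21 (5.41 log2) and rsv2 (3.44 log2), transcription factors, and mek1 (1.70 log2), a meiotic checkpoint kinase. The opi10- array of atf21 before heat (12.1) lay under background, so that the size of its change is uncertain.

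Recombination and repair genes shared with mitosis had 6 of 13 higher and 3 lower (2 and 9 as deposited), among them ctp1 (1.55 log2), which trims DNA ends, rad54 (1.46 log2) and rdh54 (-1.13 log2). Cohesin and shugoshin genes had 5 of 11 higher and 4 lower (2 and 8 as deposited). There the mitotic cohesin genes rad21 (2.48 log2) and psm1 (1.40 log2) rose on both scales, and the loader gene ssl3 fell (-1.39 log2). Genes of horsetail movement and telomeres had 7 of 11 higher and 3 lower (1 and 6 as deposited), with rap1 (2.92 log2) and taz1 (0.89 log2), telomere proteins, and kms1 (1.07 log2), of the nuclear envelope, of which taz1 and kms1 were not called as deposited. Of 15 spore genes outside the naming rule, 1 was higher and 9 lower (0 and 14 as deposited). These were led by the septins spn2 (-2.13 log2) and spn6 (-1.43 log2) and the glucanase gene eng2 (-1.32 log2). The opi10+ array of spn6 at 43C (13.6) lay under background, so that the size of its change is uncertain.

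Between the strains the members differed little. Over the 4 conditions together, limma called 0 of 68 members and 0 of 2892 genes, and the smallest adjusted p among members was 0.319, for ssm4 (-0.41 ± 0.07 log2, opi10- minus opi10+, lower in opi10- in 4 of 4 conditions). At an unadjusted p under 0.05 stood 14 members (20.6%) and 319 of all tested genes (11%). The strain differences of the members ran from -0.77 log2 (mde6) to 0.28 log2.

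Within a condition the strains were compared as 1 array against 1, with no replicate and no test. The counts of members higher and lower in opi10- were 30 and 38 (before heat), 31 and 36 (43C), 28 and 38 (1 h), and 32 and 35 (3 h), with medians of -0.03, -0.03, -0.02 and -0.04 log2. The share lower in opi10- was 55.9%, 52.9%, 55.9% and 51.5% of members, against 43.9%, 45.7%, 46.7% and 49.1% of all tested genes, whose medians were 0.03, 0.02, 0.01 and 0.00 log2. The 2-fold counts here were made after adding 16 to each signal. By that measure the only member at least 2-fold apart was mde6 at 1 h, with 101.9 in opi10- and 304.5 in opi10+ (-1.44 log2). Plain ratios of some dimmer members also passed 2-fold, such as that of rec8 before heat (82.6 in opi10- against 37.3 in opi10+). Among all tested genes the share at least 2-fold apart with opi10- above opi10+ was 0.104%, 0.104%, 0.0692% and 0.484% in the order of sampling, and the share with opi10- below was 0.45%, 0.346%, 0.0346% and 0.104%. At 1 h, 5 of 2601 S. cerevisiae probe sets differed that much in one direction or the other. Their median signal was 2.46, and with 16 added such low signals can hardly differ 2-fold. That count is therefore no yardstick for mde6, whose signals were far higher. mde6 was also lower in opi10- at 43C (39.8 against 75.6 in opi10+) and at 3 h (324.7 against 616.4), and close before heat (163.8 against 168.3).

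Other wide differences were those of rec8 before heat, with 82.6 in opi10- and 37.3 in opi10+ (0.89 log2), of rec15 at 3 h, with 29.7 in opi10- and 63.8 in opi10+ (-0.81 log2), and of mei2 at 43C, with 201.1 in opi10- and 340.4 in opi10+ (-0.72 log2). At 43C, the change from the same strain before heat had opposite signs in opi10- and opi10+ for 6 of the 68 members. The number was 15 at 1 h and 15 at 3 h of recovery, and 10 between 43C and 1 h. The same count was not made over all tested genes, so these numbers cannot be read as particular to the members.

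**Figure D4:**
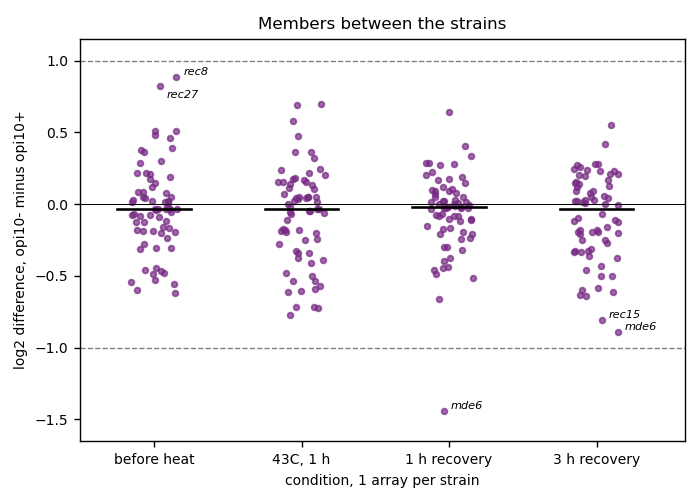
Log2 difference of normalised signal + 16, opi10- minus opi10+, for the 68 genes in each condition (1 array per strain). The median is drawn as a bar, and dashed lines mark 2-fold on this scale. The medians lie between -0.04 and -0.02, and mde6 at 1 h of recovery is the only point outside the dashed lines.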

How the data were processed

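The authors deposited linear intensity values for 10928 probe sets of an Affymetrix yeast array. The sources used here state neither the summarisation method nor a genome build. Gene names came from the platform annotation, updated through the ASM294v3 gene table. The S. cerevisiae namesakes of 14 symbols were not counted as members. Values were quantile normalised over 2914 S. pombe probe sets and transformed as log2(value + 16), which understates changes of dim genes. Genes with a mean above the 75th percentile of 2601 S. cerevisiae probe sets (signal 5.72) were tested with limma 3.58.1 in R 4.3.3 (strain + condition, 3 residual degrees of freedom). P-values were adjusted by Benjamini-Hochberg over 2892 genes. On simulated data of that size, 94% of 100 genes changed by 1 log2 were recovered, with 13 false calls in all. The simulation changed few genes, with independent noise and no normalisation step, and so does not cover the effect of the scaling.

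Members and lists were chosen with earlier results of these data known. Full values are given for the 6 strongest called changes in each direction per comparison, members at least 2-fold apart between strains, and examples of each role, up to 4. Of each pathway list, the 3 largest called changes at 43C were named. Folds written "at least" set a dim gene against the background of its arrays. Sequences and promoter motifs were not analysed here. The number of arrays limits the precision.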

Additional observations from a re-analysis of the deposited data

Results flagged for a closer look

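For 5 genes the opi10- and opi10+ arrays moved at least 0.3 log2 in opposite directions from the same starting condition. Each rests on 1 array per strain and condition, and the difference was not tested. Such genes were not counted over all tested genes. mde6 at 1 h of recovery changed by -0.61 log2 in opi10- and 0.80 log2 in opi10+, a difference of -1.41 log2. meu32 at 43C changed by 0.34 log2 in opi10- and -0.56 log2 in opi10+, a difference of 0.89 log2. mde2 at 1 h changed by 0.33 log2 in opi10- and -0.37 log2 in opi10+, a difference of 0.70 log2. At 3 h, meu23 changed by -0.41 log2 in opi10- and 0.31 log2 in opi10+, a difference of -0.72 log2. mfr1, an activator of protein breakdown in meiosis, changed at 3 h by -0.51 log2 in opi10- and 0.33 log2 in opi10+, a difference of -0.84 log2, but both of these opi10- arrays and the opi10+ array before heat lay under background, so these sizes carry no weight.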

How the results depend on the processing

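The alternatives were the deposited scale, median centring, a pseudocount of 1 or 64, filtering at the 95th percentile or not at all, an intensity trend with robust moderation, no strain term, and leaving out each array. On the deposited scale 14 members were called higher at 43C, 19 higher and 4 lower at 3 h, and 43 higher and 10 lower between 43C and 1 h of recovery. Median centring gave 17 higher at 3 h. With 1 array left out, the counts higher and lower ran from 24 to 28 and 22 to 27 at 43C, 13 to 24 and 7 to 15 at 1 h, 3 to 12 and 7 to 17 at 3 h, and 17 to 23 and 20 to 26 between 43C and 1 h. Where a lone array stands for a condition, it is assumed to vary like the others. Members at least 2-fold apart between strains numbered 4 before heat, 3 at 43C, 2 at 1 h and 3 at 3 h with a pseudocount of 1, and 1 at 3 h on the deposited scale and with median centring. The strain term called 0 members under each alternative run. Single-gene results named by rule, the largest called changes only, kept direction and call in 719 recomputed values, lost the call in 45 and reversed in 0. Outside these, isp4, rec11 and spo9 at 43C had opposite calls as deposited. So did meu1, meu15, meu23 and meu31 between 43C and 1 h. The calls lost were those of rec27 and mde3 at 1 h and 3 h, and of mde6, rec6, meu10, meu14, meu15 and meu22 at 3 h. The cause was not tested. Signals under background on some arrays limit rec27, mde3, spo4, mfr1, mde2, mde7, meu6, meu27, mei3 and ssm4. Outside the set they limit atf21 and spn6.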
